A study of Mus musculus with 23 samples.

Results

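The JAK kinases and STAT factors measured here were 9 genes of 35322 in the table: the kinases Jak1, Jak2, Jak3 and Tyk2 and the transcription factors Stat3, Stat4, Stat5a, Stat5b and Stat6, each taken by its symbol. RNA-Seq had been done on lung of 23 Balb/c offspring aged 13 weeks, all of them female by the series text. Dams were given PM2.5 or saline intranasally from before mating until weaning, and their offspring were then sensitised to and challenged with ovalbumin (OVA) or left as controls (PBS in the labels, nebulised saline in the methods). This gave 7 Sham (saline dams, no OVA), 7 PM (PM2.5 dams, no OVA), 5 Sham-OVA and 4 PM-OVA libraries. The labels do not tie offspring to litters, so p-values measure only the spread between these samples, some of which may share a dam. The labels name the lung piece RML while the methods name the right lower lobe, and the PM2.5 was given to the dams only.

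Cytokines of the interleukin, interferon and growth hormone families bind receptors with no kinase of their own, and JAK kinases bound to the receptor tails phosphorylate each other, the receptor and STAT factors. Phosphorylated STAT factors pair, enter the nucleus and bind DNA, and among the genes they switch on are the SOCS and CISH inhibitors that close the circuit. In allergic airway disease (AAD) the best known branch is that of interleukin 4 and interleukin 13, which signal through JAK1, JAK3 or TYK2 to STAT6. Signalling by these proteins is set by phosphorylation, which RNA does not report, so the values below are transcript levels only.

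Values were RPM as deposited, that is, the reads of a gene scaled by 1 factor per library and not divided by gene length. In Sham replicate 1, with 14379592 reads on genes, 1 read was 0.0577 RPM. In Sham-OVA replicate 3, with 2298645 reads on genes, it was 0.311 RPM. The values summed over all genes therefore differed between libraries. Reads on genes ranged from 13089691 to 17393579 in the saline libraries and from 2298645 to 12355561 in the OVA libraries, so each OVA library was shallower than each saline library, and depth and OVA challenge cannot be told apart. Sham-OVA replicate 3 (2298645 reads) and PM-OVA replicates 3 and 4 (5922469 and 4324326 reads) were the shallowest. Sham replicate 1 went against its female label, with 0.289 RPM of Xist and 222 RPM summed over 4 Y-linked genes, against 174 to 1618 RPM and at most 0.132 RPM in the other 22 libraries. PM-OVA replicate 1 had the smallest sum over 12 genes of the type 2 response, 10278 RPM, against 13111 to 26869 RPM in the other OVA libraries and at most 440.4 RPM in saline libraries. Lung identity was borne out by alveolar and airway epithelial markers, which summed to 26880 to 71455 RPM in every library. On the RPM scale the median of all 16795 genes tested moved by -0.48 (log2) with OVA in Sham offspring and by -0.43 in PM offspring. The level of a gene against its transcript length also turned: the slope was 0.0506 to 0.253 log2 units per doubling of length in saline libraries and -0.378 to -0.0469 in OVA libraries.

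The genes lie on 7 chromosomes (GENCODE annotation of GRCm38): Stat4 at chr1:51987148-52107189, Jak1 at chr4:101152367-101265282, Jak3 at chr8:71676296-71690575, Tyk2 at chr9:21104068-21131243, Stat6 at chr10:127642986-127660957 and Jak2 at chr19:29251828-29313080. Stat5b (chr11:100780731-100850724, minus strand), Stat5a (chr11:100859351-100885169, plus strand) and Stat3 (chr11:100885098-100939540, minus strand) form a cluster. Stat5b and Stat5a start 8626 bases apart and point away from each other, and the ends of Stat5a and Stat3 overlap by 72 bases. The promoters of Stat5b, Stat5a, Stat3 and Jak2 are shown because the first 3 are neighbours whose transcripts moved in different directions, and because Stat5b and Jak2, which were lower after OVA on the RPM scale, had the promoters richest in CpG. Each is 300 bases from RefSeq (GRCm38.p6), 250 before and 50 after the start, 5′ to 3′ on the strand of the gene, with each CpG dinucleotide in capitals.
Stat5b, chr11:100850532-100850831, minus strand: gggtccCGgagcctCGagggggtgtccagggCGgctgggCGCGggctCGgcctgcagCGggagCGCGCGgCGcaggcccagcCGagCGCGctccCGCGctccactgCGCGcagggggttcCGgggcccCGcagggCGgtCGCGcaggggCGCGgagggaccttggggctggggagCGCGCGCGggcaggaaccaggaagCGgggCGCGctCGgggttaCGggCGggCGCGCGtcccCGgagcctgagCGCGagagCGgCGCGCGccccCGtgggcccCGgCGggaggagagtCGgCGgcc
Stat5a, chr11:100859406-100859705, plus strand: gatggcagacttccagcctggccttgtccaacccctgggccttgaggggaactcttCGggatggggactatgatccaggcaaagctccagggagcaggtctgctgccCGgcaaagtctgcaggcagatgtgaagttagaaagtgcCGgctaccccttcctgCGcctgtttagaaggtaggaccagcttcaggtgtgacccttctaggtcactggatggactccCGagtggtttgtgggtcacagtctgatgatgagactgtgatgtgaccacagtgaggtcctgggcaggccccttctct
Stat3, chr11:100939491-100939790, minus strand: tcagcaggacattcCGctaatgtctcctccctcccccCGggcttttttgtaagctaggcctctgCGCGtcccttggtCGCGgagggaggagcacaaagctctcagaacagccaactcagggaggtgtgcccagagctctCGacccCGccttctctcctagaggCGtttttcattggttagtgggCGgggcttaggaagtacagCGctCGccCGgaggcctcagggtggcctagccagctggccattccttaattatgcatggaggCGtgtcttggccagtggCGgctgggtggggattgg
Jak2, chr19:29251553-29251852, plus strand: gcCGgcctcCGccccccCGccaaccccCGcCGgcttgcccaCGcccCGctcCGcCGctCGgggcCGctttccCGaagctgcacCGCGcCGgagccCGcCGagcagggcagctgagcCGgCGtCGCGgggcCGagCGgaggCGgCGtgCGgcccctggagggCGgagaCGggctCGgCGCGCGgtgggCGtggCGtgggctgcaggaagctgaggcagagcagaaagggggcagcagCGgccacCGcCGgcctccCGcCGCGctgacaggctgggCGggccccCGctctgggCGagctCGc

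The Stat5b window holds 50 CpG dinucleotides and the Jak2 window 44, against 15 in Stat3 and 5 in Stat5a, and a median of 7 over 32851 promoters (quartiles 3 and 20). Windows of the other genes hold 29 (Jak1), 23 (Tyk2), 9 (Jak3), 8 (Stat6) and 2 or 4 (Stat4, with 2 starts), while second windows of Stat5a and Stat5b hold 27 and 7. Both strands of the 12 windows were searched for the STAT motifs TTCNNNGAA and TTCNNNNGAA, each of which reads the same on both strands and can overlap the other in part. Neither occurs in any of the 12, whereas 8.30% and 6.95% of all promoters hold them. That says only that these letters are not in these windows.

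Per kilobase of exon, Jak1 and Stat6 were the highest of the 9 genes in saline lung and Stat4 the lowest. The length was that of all annotated exons of a gene merged, 9527 bases for Stat3, 7227 for Jak1 and 4402 for Stat6. Their longest transcripts have 6042, 4906 and 3775 bases, so the order of genes close in level can depend on the length used. In Sham libraries Jak1 had 32.8 ± 5.34 RPM per kb and Stat6 31.7 ± 2.45 (SD, n = 7), and these 2 did not separate, with Jak1 the higher in 5 of 7 libraries. They were followed by Stat3 (23.6 ± 1.365), Stat5b (18.0 ± 1.30), Jak2 (15.2 ± 1.61), Jak3 (8.24 ± 1.61), Tyk2 (7.70 ± 1.26), Stat5a (2.28 ± 0.402) and Stat4 (1.13 ± 0.274 RPM per kb). The ranges of Stat5b and Jak2 overlapped, as did those of Jak3 and Tyk2, whereas the other neighbours in this order did not overlap in Sham. In PM libraries the order was the same. After OVA challenge Stat3 came first, with 50.7 ± 16.5 RPM per kb in Sham-OVA (n = 5) and 50.6 ± 17.0 in PM-OVA (n = 4), above Stat6 without overlap in each group. Jak3 and Jak1 then stood side by side, at 16.3 ± 4.04 and 15.2 ± 5.81 RPM per kb in Sham-OVA and 13.8 ± 3.02 and 14.0 ± 8.74 in PM-OVA, with overlapping ranges.

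**Figure D1:**
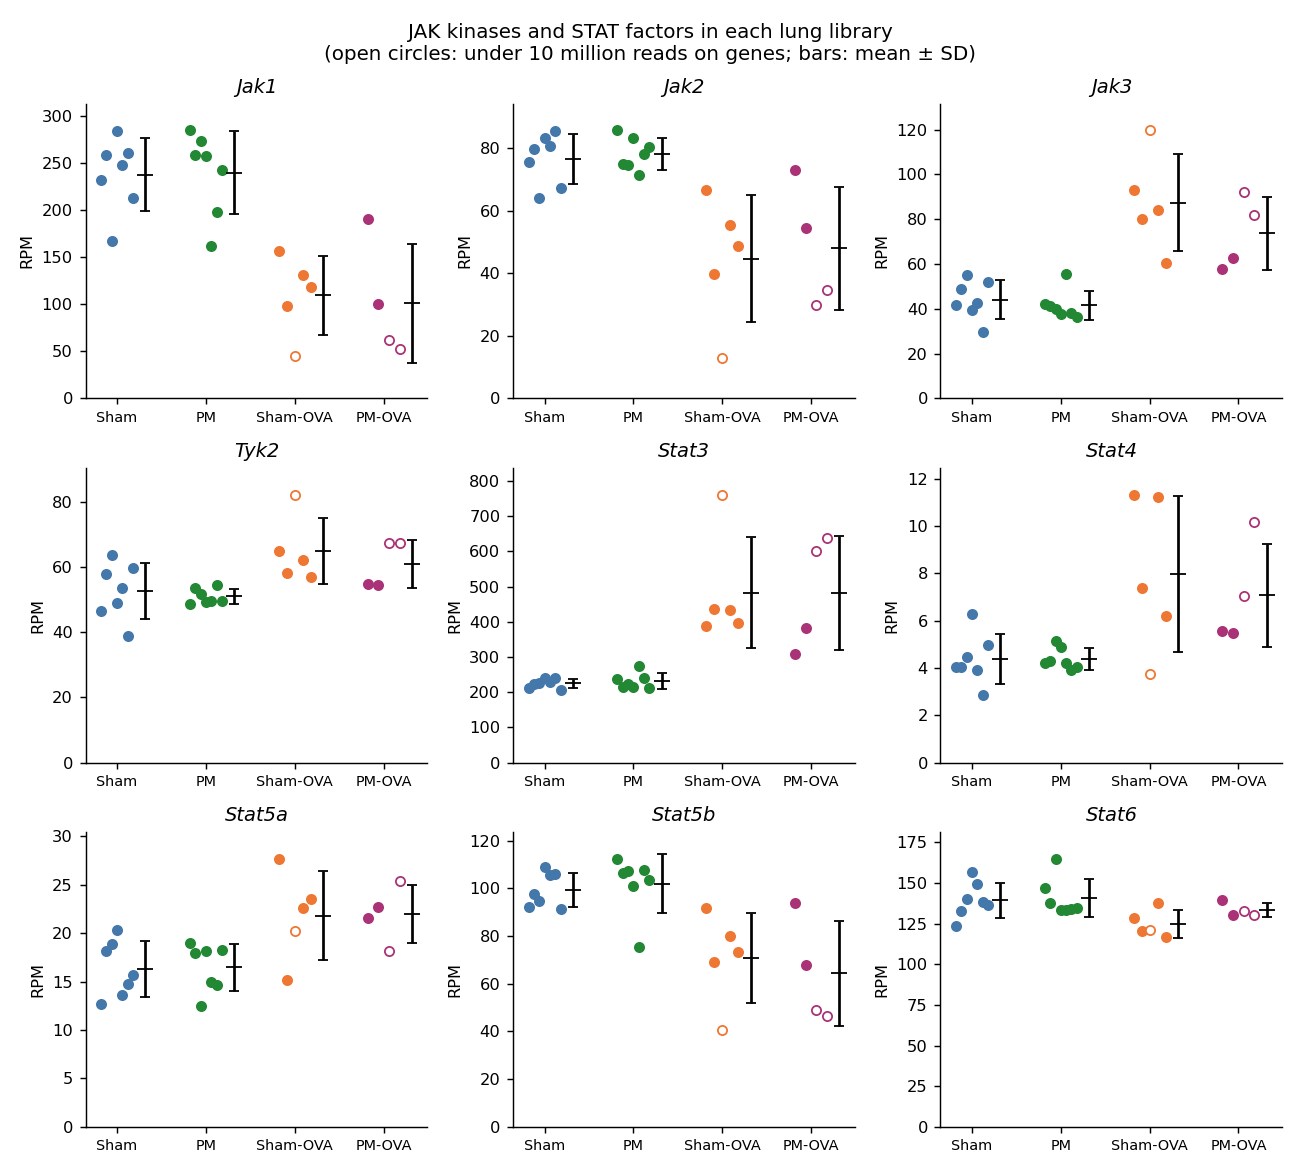
RPM of each of the 9 genes (vertical axis, from 0) in the 7 Sham, 7 PM, 5 Sham-OVA and 4 PM-OVA libraries, 1 point per library, with the mean and SD beside each group and open circles for libraries under 10000000 reads. Jak3 and Stat3 in OVA libraries lie above all saline libraries of the same maternal group, Jak1 in Sham-OVA lies below all Sham libraries, and the open circles are the extreme points for Jak1, Jak2, Tyk2, Stat5b and Stat3.

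The first question was how OVA challenge moved these transcripts in Sham offspring. Of the 9 genes, 3 were higher in Sham-OVA than in Sham at an adjusted p under 0.05 (Jak3, Stat3, Stat4), where 20.6% of all genes tested were called higher, and 3 were lower (Jak1, Jak2, Stat5b), where 47.5% were. In PM offspring 4 were higher (Jak3, Stat3, Stat4, Stat5a; 20.1% of all genes) and 3 were lower (Jak1, Jak2, Stat5b; 45.2% of all genes). The median log2 fold change of the 9 genes was 0.30 in Sham and 0.25 in PM offspring, against -0.48 and -0.43 over all genes. Groups of libraries did not overlap for 2 genes that were higher in Sham-OVA (Jak3, Stat3; 13.2% of all genes) and for 1 that was lower (Jak1; 35.0%), and for 3 that were higher in PM-OVA (Jak3, Stat3, Stat4; 13.3%) and 0 that were lower (28.6%). At the threshold the study set for DEGs (adjusted p below 1e-06 with a log2 change of more than 1 either way), limma called none of the 9 in either cohort, where 4.51% and 0.286% of all genes passed. DESeq2 on the recovered reads called Jak3, Stat3 and Stat4 in Sham offspring, where 28.9% passed, and Stat3 in PM offspring, where 17.0% passed. In bulk lung, fewer cells of a type and less RNA per cell cannot be told apart. All tests below are limma with Benjamini-Hochberg adjustment over 16795 genes, on log2(RPM + 0.5).

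Jak1, the kinase shared by interferon, interleukin 6 and common gamma chain receptors, had the largest fall of the 9 in both cohorts. It lay between 167 and 284 RPM in Sham (median 248) and between 162 and 284 in PM (median 257). The 5 Sham-OVA libraries had 156, 97.8, 44.7, 131 and 118 RPM and the 4 PM-OVA libraries 190.5, 99.9, 61.5 and 51.9. All 5 Sham-OVA libraries were below every Sham library and 3 of 4 PM-OVA libraries below every PM library, with PM-OVA replicate 1 inside the saline range. Jak1 fell by 1.21 ± 0.25 (log2, SE; adjusted p = 0.000672) in Sham and by 1.41 ± 0.30 (adjusted p = 0.00137) in PM offspring. Against the median of all genes the fall was smaller, -0.73 and -0.98. It was called under each of the 3 rescalings (-0.95 to -0.75 in Sham and -1.08 to -0.95 in PM) and with the trend on transcript length and GC content removed, where it was -0.37 (adjusted p = 0.0355) and -0.58 (adjusted p = 0.0149).

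Jak2, the kinase of the growth hormone, erythropoietin and interleukin 5 receptors, was also lower on the RPM scale. It ranged from 63.9 to 85.3 RPM around a median of 79.6 in Sham, and in PM from 71.2 to 85.6 around 78.0. Sham-OVA libraries had 66.7, 39.9, 12.7, 55.5 and 48.6 RPM and PM-OVA libraries 72.9, 54.3, 29.9 and 34.5, so 1 library of each OVA group overlapped its controls. The changes were -0.95 ± 0.30 (adjusted p = 0.0125) and -0.79 ± 0.21 (adjusted p = 0.00486). With the length and GC trend removed they were 0.01 (adjusted p = 0.98) and 0.17 (adjusted p = 0.121), so the direction did not hold, and with TMM scaling the call in Sham offspring was lost (-0.50, adjusted p = 0.0587). Without Sham-OVA replicate 3, whose Jak2 value was 12.7 RPM, the change in Sham offspring was -0.55 (adjusted p = 0.0012).

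Jak3, the kinase that pairs with the common gamma chain and is found mainly in lymphoid and myeloid cells, moved the other way. Sham libraries held 29.6 to 54.9 RPM (median 42.4) and PM libraries 36.1 to 55.3 (median 39.8). Sham-OVA libraries held 93.1, 80.0, 119.6, 84.1 and 60.3 RPM and PM-OVA libraries 57.7, 62.7, 92.3 and 81.7, all 9 above every saline library of their cohort. Jak3 rose by 0.97 ± 0.18 (adjusted p = 0.000327) in Sham and 0.81 ± 0.16 (adjusted p = 0.000959) in PM offspring. Its exons share 404 bases with Insl3 on the same strand, so some reads could belong to either gene. Insl3 itself was at 3.54 to 8.74 RPM in saline libraries and 6.35 to 23.2 in OVA libraries, a level well under that of Jak3.

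Tyk2, the kinase of type I interferon and interleukin 12 receptors, did not pass the test on the RPM scale. It lay at 38.8 to 63.8 RPM in Sham and 48.8 to 54.6 in PM. Sham-OVA libraries had 65.1, 58.3, 82.3, 62.2 and 57.2 RPM, 2 of them above every Sham library, and PM-OVA libraries 54.8, 54.6, 67.4 and 67.5, 3 of them above every PM library. The changes were 0.30 ± 0.15 (adjusted p = 0.0871) and 0.25 ± 0.11 (adjusted p = 0.0687). Under the 3 rescalings and with the length trend removed it was called higher in both cohorts, at 0.60 to 0.77. The antisense gene 1700084C06Rik shares 554 bases with its exons and had at most 0.136 RPM on average in a group, and whether counting used strand is not given in the sources used here.

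Stat3, the factor of interleukin 6, interleukin 10 and oncostatin M signals, had the largest rise of the 9 in both cohorts. It was tight in saline lung, from 206 to 241 RPM around a median of 226 in Sham, and in PM from 213 to 275 around 225. Sham-OVA libraries had 389, 437, 761, 433 and 396 RPM and PM-OVA libraries 308, 383, 600.2 and 637, all above every saline library. The 3 libraries over 600 RPM were the 3 shallowest. Stat3 rose by 1.05 ± 0.16 (adjusted p = 5.19e-05) in Sham and by 1.00 ± 0.19 (adjusted p = 0.00075) in PM offspring, 2.07-fold and 2.00-fold. Without the libraries under 10000000 reads the rise was 0.88 (adjusted p = 5.91e-07) in Sham and 0.57 (adjusted p = 0.00375) in PM offspring, and with the length trend removed it was 1.83 and 1.74.

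Stat4, the factor downstream of interleukin 12 in T and NK cells, was the least abundant of the 9. It lay at 2.85 to 6.28 RPM in Sham (median 4.05) and 3.91 to 5.14 in PM (median 4.23). Sham-OVA libraries had 11.3, 7.37, 3.73, 11.2 and 6.21 RPM and PM-OVA libraries 5.58, 5.49, 7.04 and 10.2, with the lowest value, 12 reads, in Sham-OVA replicate 3. Stat4 rose by 0.73 ± 0.27 (adjusted p = 0.0242) in Sham and 0.60 ± 0.19 (adjusted p = 0.0164) in PM offspring. Without the 2 shallow PM-OVA libraries it was 0.31 in PM offspring (adjusted p = 0.136), no longer called. In Sham offspring it was not called without Sham replicate 6, Sham-OVA replicate 1 or Sham-OVA replicate 4 (lowest value 0.59). The transcript Gm28177 shares 1033 exon bases with Stat4 (26.7% of its exons) on the same strand. Gm28177 went down where Stat4 went up, from 12.04 to 31.4 RPM in saline libraries to 0 to 15.5 RPM in OVA libraries, and how reads on the shared bases were divided was not tested.

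Stat5a and Stat5b, near-identical factors of interleukin 2, prolactin and growth hormone signals, moved apart. Stat5a had 12.7 to 20.4 RPM in Sham and 12.5 to 18.99 in PM. Its Sham-OVA libraries had 27.7, 15.1, 20.2, 22.5 and 23.5 RPM, of which 3 were above every Sham library, and its PM-OVA libraries 21.6, 22.7, 18.2 and 25.4, of which 3 were above every PM library. Its change was 0.40 ± 0.18 (adjusted p = 0.0592) in Sham and 0.41 ± 0.16 (adjusted p = 0.038) in PM offspring, and it was called in both cohorts under each rescaling (0.76 to 0.86). The call in PM offspring was lost without PM replicate 3, 5 or 6 or PM-OVA replicate 2 or 4 (lowest value 0.34). Stat5b had 91.4 to 109 RPM in Sham and 75.5 to 112 in PM. Its Sham-OVA libraries had 91.6, 69.1, 40.4, 79.8 and 73.1 RPM, of which 4 were below every Sham library, and its PM-OVA libraries 94.0, 67.9, 48.9 and 46.7, of which 3 were below every PM library. It changed by -0.53 ± 0.17 (adjusted p = 0.0127) and -0.71 ± 0.19 (adjusted p = 0.00551), close to the shift of all genes, from which it differed by -0.05 and -0.28. With the length trend removed the value in Sham offspring was 0.14 (adjusted p = 0.232) and in PM offspring -0.07 (adjusted p = 0.591). In the longest transcripts 2.85% of the 100-base windows of Stat5a and 5.18% of those of Stat5b also occur in the other gene, so reads there are uncertain, but 4 of 4 PM-OVA and 5 of 5 Sham-OVA libraries had a higher ratio of Stat5a to Stat5b than every saline library.

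Stat6, the factor of interleukin 4 and interleukin 13, was not called in either cohort. It had 124 to 156 RPM in Sham (median 138) and 133 to 165 in PM (median 135). Sham-OVA libraries had 128, 120.3, 121, 138 and 116 RPM and PM-OVA libraries 139, 130.2, 132.5 and 130.4, so the groups overlapped. Even so, 3 of 5 Sham-OVA libraries were below every Sham library and 3 of 4 PM-OVA libraries below every PM library. The changes were -0.16 ± 0.11 (95% interval -0.39 to 0.08, adjusted p = 0.211) and -0.07 ± 0.11 (-0.30 to 0.16, adjusted p = 0.555). The sign followed the scaling: with TMM the values were 0.30 (adjusted p = 0.04) and 0.39 (adjusted p = 0.0184). Stat2, an interferon factor of the same family, changed by -0.76 ± 0.25 (adjusted p = 0.015) in Sham and by -0.59 ± 0.20 (adjusted p = 0.0211) in PM offspring. It was not called in either cohort under the 3 rescalings, and with the length trend removed it was at -0.17 and -0.035.

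**Figure D2:**
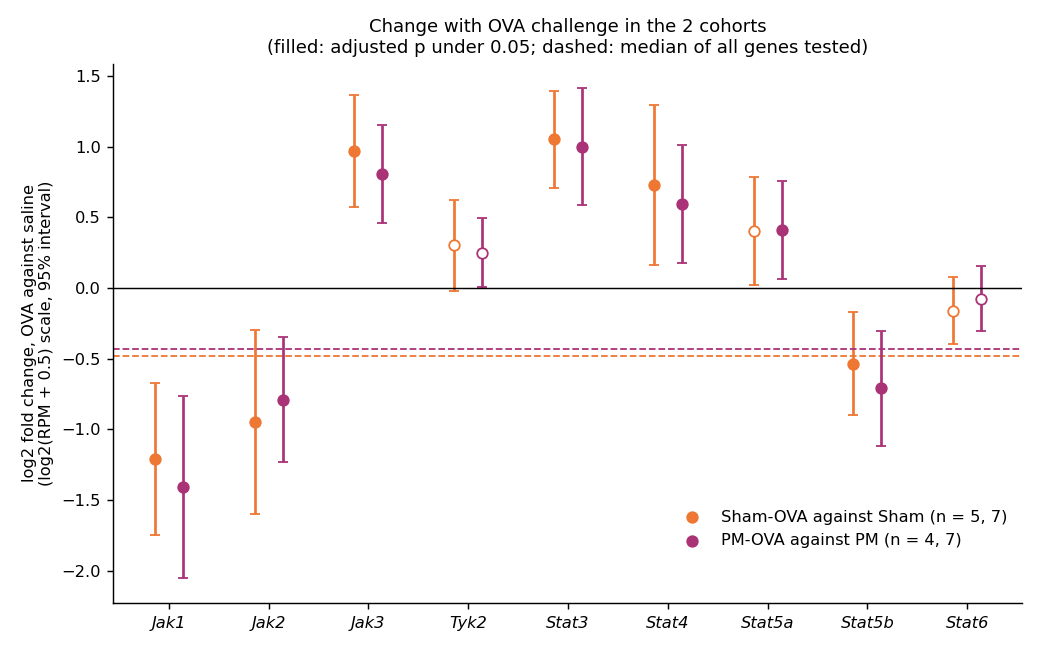
Log2 fold change of each gene with OVA (vertical axis) in Sham offspring (orange) and PM offspring (purple), with 95% intervals; filled points have an adjusted p under 0.05 and dashed lines give the median of all genes tested, -0.48 and -0.43. Jak3, Stat3 and Stat4 lie above 0 in both cohorts, Jak1 lies furthest below the dashed lines, and Stat5b lies near them.

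Ratios between 2 genes of the same library do not depend on a scaling by 1 factor per library. Stat3 to Stat6 was 1.52 to 1.75 in Sham libraries and 3.03 to 6.30 after OVA, and 1.36 to 2.07 in PM libraries and 2.21 to 4.89 after OVA, without overlap in either cohort. Stat3 to Jak1 moved from a median of 0.927 to 3.35 in Sham offspring and from 0.833 to 6.80 in PM offspring, where PM-OVA replicate 1 (1.61) fell under the highest PM library (1.70). The PM-OVA libraries were at 1.61, 3.84, 9.76 and 12.3, and the higher pair were the 2 shallow libraries. Jak3 to Jak2 moved from a median of 0.549 in Sham to 1.51 in Sham-OVA and from 0.490 in PM to 1.76 in PM-OVA, without overlap. Stat5a to Stat5b moved from 0.171 to 0.302 and from 0.169 to 0.354, also without overlap. Of the summed RPM of the 4 kinases, Jak1 made up 57.5% ± 5.19 in Sham (n = 7) and 34.9% ± 10.2 in Sham-OVA (n = 5), while Jak3 made up 10.9% ± 2.86 and 29.2% ± 9.85. Of the summed RPM of the 5 STAT genes, Stat3 made up 46.5% ± 1.13 in Sham and 67.1% ± 7.91 in Sham-OVA, and Stat5b 20.5% ± 0.54 and 10.5% ± 3.72.

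**Figure D3:**
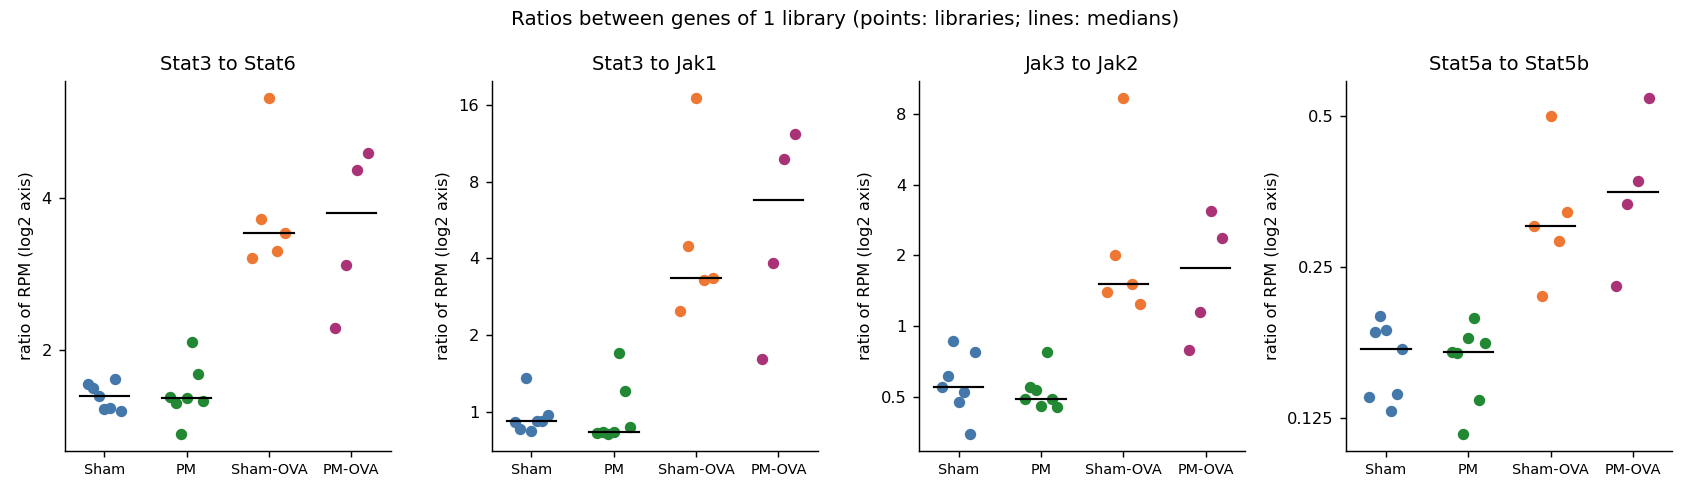
Ratio of the RPM of 2 genes in the same library (vertical axis, log2 scale) for 4 pairs, with 1 point per library and a line at the median of each group. Stat3 to Stat6, Jak3 to Jak2 and Stat5a to Stat5b are above every saline library of the same cohort in all 9 OVA libraries, and Stat3 to Jak1 is so in all but PM-OVA replicate 1.

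Scaling set which of the smaller changes were called. When libraries were scaled by median of ratios, TMM or quantiles, 43.4% to 48.5% of the genes called in Sham offspring were higher, against 30.2% on RPM, and 44.7% to 49.3% in PM offspring against 30.8%. Jak3, Stat3 and Stat4 were higher and Jak1 lower in both cohorts under all 3, with Jak3 at 1.14 to 1.42, Stat3 at 1.12 to 1.51 and Stat4 at 0.94 to 1.22. Tyk2 and Stat5a became called, and Stat5b kept its call only in PM offspring with median-of-ratios scaling (-0.35, adjusted p = 0.0348).

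**Figure D4:**
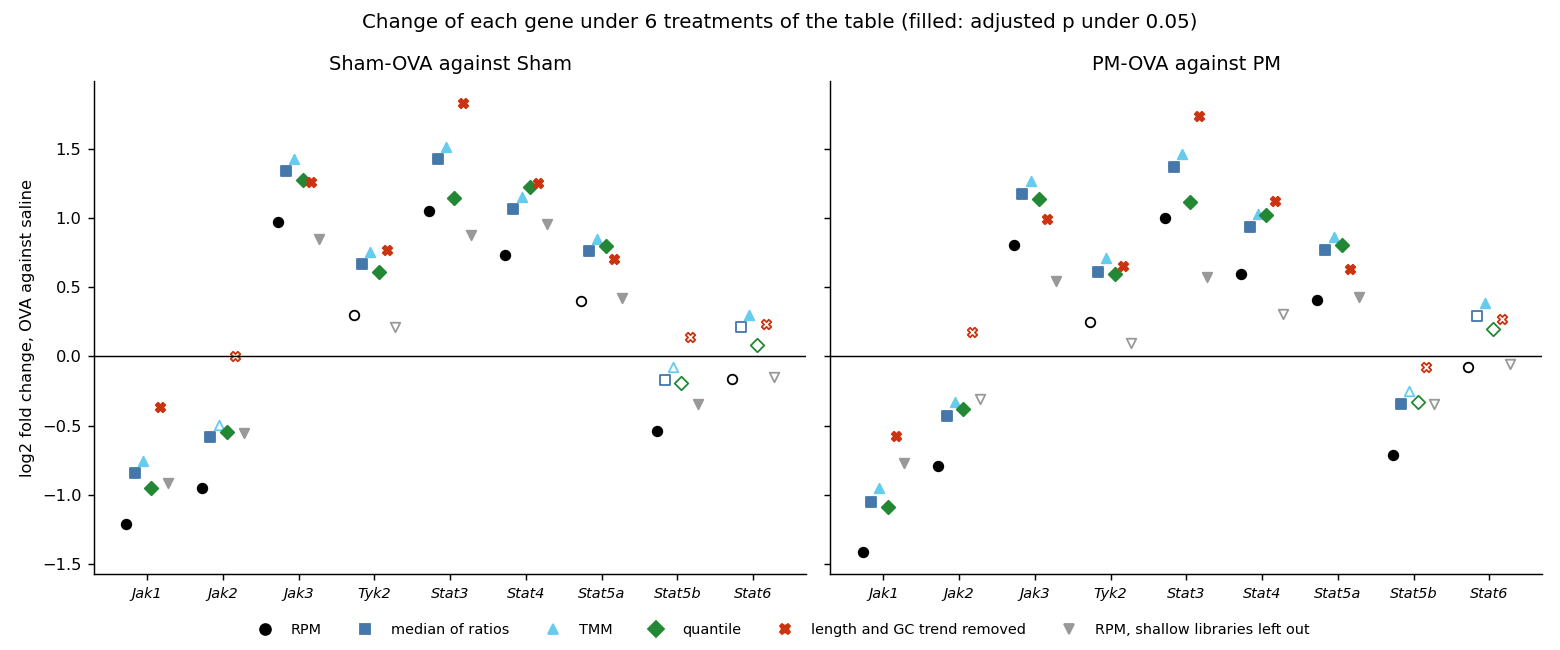
Log2 fold change of each gene with OVA (vertical axis) in Sham offspring (left) and PM offspring (right) under 6 treatments of the values, with filled symbols for an adjusted p under 0.05. Jak3 and Stat3 stay above 0 and filled throughout, Jak1 stays below 0 and filled, Jak2 reaches 0.01 and 0.17 when the length and GC trend is removed, and Stat6 changes sign between RPM and the rescalings.

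Depth moved with several of these genes among the OVA libraries. The 3 OVA libraries under 10000000 reads had the 3 lowest Jak1 values (44.7, 51.9 and 61.5 RPM), the 3 lowest Stat5b values (40.4, 46.7 and 48.9 RPM) and the 3 highest Stat3 values (600.2, 637 and 761 RPM). They also had the 3 lowest Jak2 values (12.7, 29.9 and 34.5 RPM) and the 3 highest Tyk2 values (67.4, 67.5 and 82.3 RPM). Stat6 in them was 121, 130.4 and 132.5 RPM. Without them 4 of 9 genes were called in PM offspring, Jak1, Jak3, Stat3 and Stat5a, with Jak1 at -0.77 (adjusted p = 0.0225) and Jak3 at 0.54 (adjusted p = 0.00928). The share of all genes called in that fit is not given here, so this count cannot be read as particular to the 9 genes. Without Sham replicate 1 and Sham-OVA replicate 3 the values in Sham offspring were -0.92 for Jak1, 0.84 for Jak3 and 0.86 for Stat3, and without PM-OVA replicate 1 those in PM offspring were -1.78, 0.91 and 1.19, all with adjusted p under 0.05. The part of depth in these values was not tested.

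**Figure D5:**
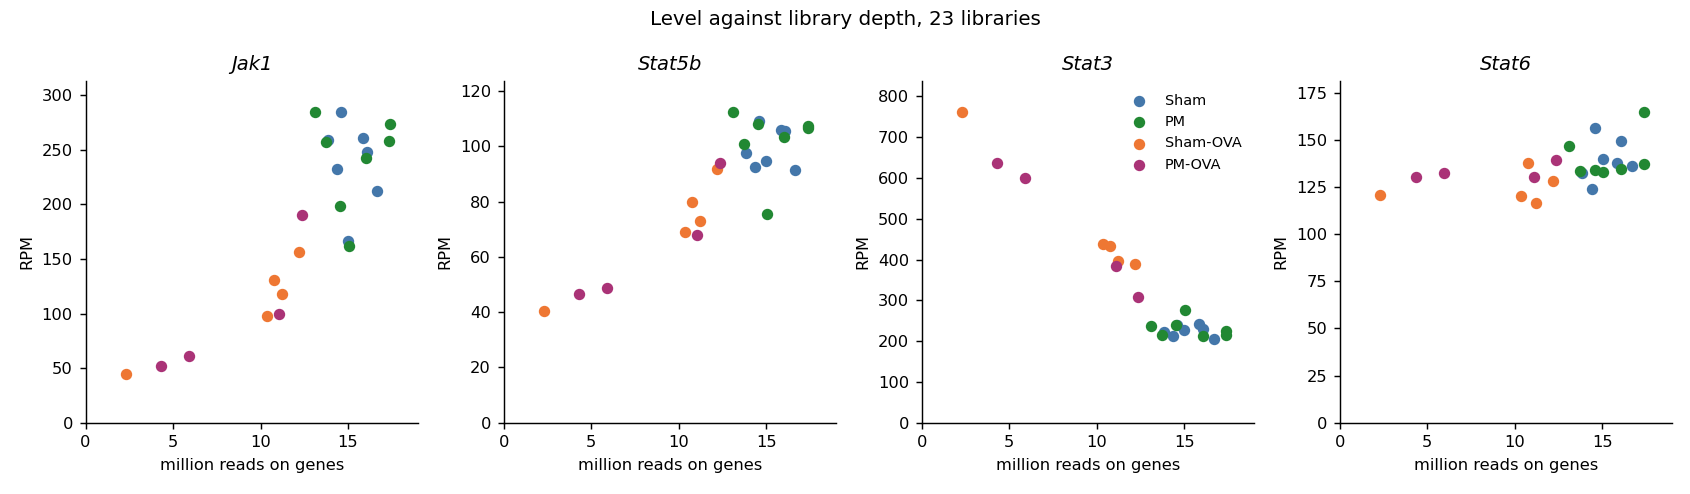
RPM of Jak1, Stat5b, Stat3 and Stat6 (vertical axes, from 0) against reads on genes (horizontal axis) in all 23 libraries, coloured by group. The 3 shallowest libraries have the lowest Jak1 and Stat5b and the highest Stat3, and all 9 OVA libraries lie to the left of all 14 saline libraries.

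Markers of several cell types moved with these genes. For the counts on RPM of markers and gene lists that follow, the shares of all genes called on RPM are the measure. They were 20.6% higher and 47.5% lower in Sham offspring and 20.1% higher and 45.2% lower in PM offspring. For the counts under the 3 rescalings the measure differs. There 4903 to 5484 of 16795 genes were called higher and 5812 to 6407 lower in Sham offspring. In PM offspring 4862 to 5345 were called higher and 5445 to 6003 lower. T cells carry Jak3 and Stat4, and T cell markers were higher for 4 of 8 in Sham and 3 of 8 in PM offspring, and for 6 of 8 in both under each of the 3 rescalings. Their summed level was 85.3 to 189 RPM in Sham against 107.5 to 283.5 in Sham-OVA, and 80.8 to 153 in PM against 125 to 221 in PM-OVA. NK cells also carry Stat4, and NK cell markers were lower for 6 and 7 of the 7 tested (4 to 5 under the rescalings), and 1 of the 8 on the list was at 0 in every library of each group. Their sum was 74.7 to 190.3 RPM in Sham against 22.1 to 107.5 in Sham-OVA, and 92.4 to 163 in PM against 33.95 to 89.2 in PM-OVA. Interstitial macrophage markers were higher for 8 of 8 in both cohorts, with sums of 796 to 1419 RPM in Sham against 3079 to 4733 in Sham-OVA, and 932 to 1541 in PM against 3042 to 3593 in PM-OVA. B cell markers were higher for 3 and 2 of 8, and for 6 and 4 to 6 of 8 under the rescalings (sums of 86.6 to 343 RPM in saline libraries and 216 to 682 in OVA libraries). Eosinophil markers were higher for 5 and lower for 1 of the 6 tested in each cohort (sums of 4.27 to 22.3 RPM in saline libraries and 27.96 to 106 in OVA libraries). The lower one was Siglecf, with means of 7.89 RPM in Sham and 3.76 in Sham-OVA, and 8.55 in PM and 3.22 in PM-OVA. In Sham offspring no eosinophil marker was lower with quantile or TMM scaling. Of the 8 on the list 2 were at 0 throughout Sham, 3 throughout PM and 1 throughout each OVA group. Endothelial markers were lower for 4 of 8 in both cohorts (Cdh5, Kdr, Tek and Tie1) and higher for 1 of 8, while under the 3 rescalings 2 to 4 were lower and 2 to 3 higher, so the balance followed the scaling. They had sums of 2218 to 6498 RPM in saline libraries and 3728 to 5401 RPM in OVA libraries. Neutrophil markers were higher for 2 and 3 of 8 and lower for 2 of 8 in each, with sums of 60.2 to 718 RPM in saline libraries and 145 to 771 in OVA libraries. The part of cell make-up in the changes above was not tested.

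Upstream of the kinases, 15 of 23 cytokine ligands had enough reads to be tested, of which 7 were higher and 1 lower in Sham and 5 higher and 2 lower in PM offspring. Under the 3 rescalings 9 to 10 were higher in Sham and 6 to 8 in PM offspring, and 0 were lower. Il13 was listed at 0 in all Sham libraries and at most at 0.114 RPM in PM, and lay at 0 to 4.24 RPM in Sham-OVA and 0 to 1.31 in PM-OVA. Il5, which acts on eosinophils, averaged 0.0521 and 0.0844 RPM in Sham and PM and 1.06 and 0.521 in the OVA groups. The lowest Il5 value was 0 in each of the 4 groups, so OVA and saline libraries overlapped. Il10, a ligand that signals through JAK1, TYK2 and STAT3, averaged 0.0716 and 0.147 RPM in saline groups and 8.26 and 4.35 RPM in Sham-OVA and PM-OVA (adjusted p = 4.52e-08 and 2.57e-05). Osm, which also acts through STAT3, rose by 1.68 ± 0.31 (adjusted p = 0.000253) and 1.01 ± 0.27 (adjusted p = 0.00598).

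Of 38 receptor chains, 35 were tested, with 8 higher and 14 lower in Sham and 7 higher and 13 lower in PM offspring (medians -0.22 and -0.39). Of all genes, 20.6% were called higher and 47.5% lower in Sham and 20.1% and 45.2% in PM offspring. The counts of receptor chains lay near those shares. Under the 3 rescalings 11 to 14 were higher and 11 to 13 lower, so the balance followed the scaling. Il5ra, the eosinophil receptor chain that uses JAK2, rose by 3.18 ± 0.20 (adjusted p = 2e-08) and 2.47 ± 0.33 (adjusted p = 0.000103). Lifr and Osmr, receptors of the interleukin 6 family, changed by -2.27 ± 0.35 and -1.85 ± 0.36 in Sham and by -2.22 ± 0.37 and -1.86 ± 0.44 in PM offspring, and Ghr, the growth hormone receptor, by -2.17 ± 0.31 and -2.12 ± 0.37 (adjusted p at most 0.00286 for the 3). All 3 were negative under every rescaling and with the length trend removed.

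Of the 8 SOCS and CISH genes, 2 were higher in both cohorts, while 6 were lower in Sham and 5 in PM offspring (medians -0.998 and -1.098). Socs1, an inhibitor that binds the JAK kinase domain, went from 6.50 RPM in Sham to 54.5 in Sham-OVA and from 6.60 in PM to 40.7 in PM-OVA, a rise of 2.96 ± 0.23 (adjusted p = 1.33e-07) and 2.51 ± 0.25 (adjusted p = 1.44e-05). Cish, a target and inhibitor of STAT5, rose by 0.53 ± 0.17 (adjusted p = 0.0121) and 0.60 ± 0.14 (adjusted p = 0.00198). Socs3, the inhibitor best known as a STAT3 target, went the other way from Stat3, falling by 0.999 ± 0.18 (adjusted p = 0.000198) and 1.21 ± 0.30 (adjusted p = 0.0034). Socs4, Socs5, Socs6 and Socs7 fell by between 0.997 and 1.70 (log2) in both cohorts, and with the length trend removed these falls shrank to between 0.20 and 0.49. Socs2 was at -0.50 (adjusted p = 0.0345) in Sham and -0.33 (adjusted p = 0.102) in PM offspring, and its sign turned in PM offspring under the rescalings.

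Of 10 PIAS proteins and phosphatases, 3 were higher and 6 lower in both cohorts (medians -0.66 and -0.45), and under the 3 rescalings 3 to 4 were higher and 3 to 6 lower. Ptpn2, a phosphatase that acts on JAK1, JAK3 and STAT factors, rose by 1.46 ± 0.14 (adjusted p = 8.43e-07) and 1.01 ± 0.13 (adjusted p = 8.06e-05). Ptpn11, the phosphatase SHP2, went from 88.0 to 181 RPM in Sham to 1.55 to 16.3 in Sham-OVA, and from 141 to 182 in PM to 0.664 to 78.2 in PM-OVA (-4.15 ± 0.40, adjusted p = 7.33e-07, and -4.46 ± 0.87, adjusted p = 0.000836). Under the rescalings and with the length trend removed Ptpn11 was at -4.17 to -3.18, and the part of library depth and quality in this value was not tested. Sh2b3, the adaptor LNK that binds JAK2, fell by 2.17 ± 0.30 (adjusted p = 2.21e-05) and 1.80 ± 0.34 (adjusted p = 0.000699). Pias2, a PIAS protein, changed by -1.35 ± 0.23 (adjusted p = 0.00013) and -1.172 ± 0.22 (adjusted p = 0.000591).

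Downstream, of 12 genes linked to STAT6 in the type 2 response 11 were higher and 0 lower in each cohort (medians 4.41 and 3.34), although Stat6 itself was not called. Retnla, a secreted product of alternatively activated macrophages and epithelium, averaged 27.9 RPM in Sham and 18476 in Sham-OVA, and 46.5 in PM and 17482 in PM-OVA. Ccl11 and Ccl24, the eosinophil chemokines known as eotaxins, rose by 4.98 ± 0.24 and 5.73 ± 0.25 in Sham and by 4.94 ± 0.22 and 4.70 ± 0.33 in PM offspring (adjusted p at most 1.01e-06). Clca1, a goblet cell product, lay at 0 to 6.16 RPM in Sham and 423 to 1755 in Sham-OVA. In PM it lay at 0 to 178 RPM, where 1 library gave nearly all of the mean of 25.5, and in PM-OVA at 1063 to 4545. Of 9 STAT3-linked genes tested, 5 were higher and 4 lower in Sham and 5 higher and 3 lower in PM offspring (medians 1.103 and 0.79): Saa3, Lcn2 and Timp1 rose by 2.57 to 6.72 on the log2 scale, and Il1r1 fell by 1.91 and 2.54. Of 10 STAT5-linked genes 4 were higher and 4 lower in Sham and 3 higher and 2 lower in PM offspring, while under the 3 rescalings 4 to 6 were higher and 1 to 2 lower. Igf1 was at 2.46 and 1.96. Bcl2, an inhibitor of cell death, was at -0.57 and -0.80 on RPM, and its sign turned with the length trend removed (0.53 and 0.30). Of 7 STAT4-linked genes tested 0 were higher and 5 lower in both cohorts (0 to 1 and 3 to 4 under the rescalings), among them Il18r1, Il12rb2, Prf1 and Gzmb (-1.99 to -0.86), while Stat4 itself was higher. The lists share genes, so their counts are not separate observations. Prf1 stands also on the NK cell marker list and Il12rb2 also among the receptor chains. Socs3 is on the STAT3 list as well, and Socs2 and Cish on the STAT5 list. The STAT5 list also holds Osm, a ligand, Il2ra, a receptor chain, and Pim1, which is on the STAT3 list too. Of the STAT6-linked genes, Alox15 is also an eosinophil marker, Mrc1 an interstitial macrophage marker and Fcer2a a B cell marker. Among receptor chains, Il5ra is also an eosinophil marker and Csf3r a neutrophil marker.

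Genes whose pattern over the 23 libraries was most like that of a member were found by the root mean square difference of centred log2 values. Only tested genes with a mean RPM of at least 0.5 times that of the member were compared. Symbols of the Gm-number and Rik kinds were left out. Stat5b was closest to Lsm14a (0.0932) and Ubap1 (0.111), Jak2 to Nadk (0.124) and Rragc (0.125), Stat3 to Atp6v0a1 (0.125) and Phc2 (0.134), and Tyk2 to Slc25a28 (0.127) and Usp19 (0.132). Jak1 was closest to Ptbp3 (0.162) and Sppl2a (0.167), Jak3 to Gramd1a (0.170) and Bnip1 (0.173), Stat5a to Sap30 (0.185) and Tmem131l (0.187) and Stat4 to Zcchc10 (0.219) and Pola2 (0.239). Stat6 varied by only 0.113 about its own mean, less than its difference from Mef2d (0.123) or Tnks2 (0.126), so its nearest genes say little.

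The last question was whether maternal PM2.5 exposure altered these transcripts or their change with OVA. In PM against Sham libraries 0 of 9 genes were called, as were 0% of all genes by limma, where 731 genes and 0 of the 9 had an unadjusted p under 0.05, and edgeR and DESeq2 called 0 genes each. The log2 differences of the 9 lay between -0.08 (Jak3) and 0.04 (Jak2), and the widest 95% intervals reached -0.34 and 0.32. Stat3, for example, was 225 ± 13.0 RPM in Sham and 231 ± 22.2 in PM (n = 7 each), with an interval of -0.11 to 0.18. For each of the 9 genes a difference beyond these bounds lay outside its 95% interval.

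In PM-OVA against Sham-OVA 0 of 9 were called and 0% of all genes, with 313 genes and 0 of the 9 at an unadjusted p under 0.05. By edgeR 0 genes and by DESeq2 1 gene, not one of the 9, was called. Jak3 had the most negative difference, -0.24 (95% interval -0.74 to 0.26), and Jak2 the most positive, 0.20 (-0.86 to 1.25). The intervals were wide, from -1.19 to 0.80 for Jak1, so with 5 and 4 libraries a lower level by 2-fold lay inside the interval of this gene. The interaction term, maternal exposure by OVA, called 0 of 9 and 0% of all genes, with 854 genes and 0 of the 9 at an unadjusted p under 0.05, by edgeR 0 and by DESeq2 2 genes, neither of them one of the 9. The interaction terms ran from -0.20 (Jak1, 95% interval -1.04 to 0.64) to 0.16 (Jak2, -0.66 to 0.98), and that of Stat3 was -0.05 (-0.57 to 0.46). When limma weighted the libraries by their quality (array weights), 4 of the 9 were called, Jak1 at -0.93, Jak2 at -0.59, Stat3 at 0.43 and Stat5b at -0.66, so Jak2 and Stat3 turned in sign. The share of all genes called in that fit is not given here, so the 4 calls cannot be read as particular to the 9 genes. Both cohorts' values for the 9 genes are given above, and Stat5a, called in PM offspring alone, had an interaction term of 0.01 (-0.48 to 0.49).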

How the data were processed

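RNA-Seq of whole lung tissue from 23 mice in 4 groups had been done by the authors as single-end reads of 100 bases with a stranded mRNA kit, trimmed with Trimmomatic, aligned to mm10 with Bowtie2, which does not split reads across introns, and quantified in SeqMonk. The deposited table holds RPM, a value proportional to the reads of a gene and not divided by its length, although the name of the table says otherwise, and replicates were not pooled. Whole reads could be recovered for 100% of values (tolerance 0.05 reads). A gene was tested where RPM was at least 0.5 in 4 of 23 libraries, and log2(RPM + 0.5) was compared with limma 3.58.1 in R 4.3.3, within the groups compared or, for the interaction, over all 4. edgeR 4.0.16 and DESeq2 1.42.0 were run on the recovered reads as alternatives, along with other scalings, filters, pseudocounts, left-out libraries, a replicate block and removal of the trend on transcript length and GC content (length known for 16535 of 16795 genes). Scripts were tested on simulated data. Members and gene lists were chosen with earlier results of these data known. From each list the text names at most 4 genes with the largest summed change among those called in both cohorts, plus all SOCS genes and Stat2. Another gene that the rule names is not reported here. For each member the 2 most alike genes are also named. Genes outside that rule (overlapping neighbours, Xist, some markers, genes shared between lists) were named after their values were seen. The labels of replicates carry numbers that are not said to pair animals.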

Additional observations from a re-analysis of the deposited data

Results flagged for a closer look

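In 36 groups of values (9 genes in 4 groups), 5 held 1 library far from the rest by Dixon's criterion, which chance does in about 1 of 20 groups. PM replicate 5 stood out for 3 genes: Jak3 was 55.3 RPM where the next PM library had 42.0, Stat3 was 275 RPM where the next had 239, and Stat5b was 75.5 RPM where the next had 101. Stat6 was 165 RPM in PM replicate 3, where the next PM library had 147. Stat3 was 761 RPM in Sham-OVA replicate 3, the library with the fewest reads, where the next Sham-OVA library had 437.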

How the results depend on the processing

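Of 495 values of the 9 genes under alternatives in the OVA comparisons, 425 kept their direction and side of the threshold, 26 lost a call, 29 gained one, 8 reversed and 7 changed sign without being called. With the length and GC trend removed, Jak2 reversed to 0.005461 in Sham and 0.17 in PM offspring and Stat5b to 0.14 in Sham. Stat6 reversed to 0.30 (TMM) and 0.31 (edgeR) in Sham and to 0.39 (TMM), 0.32 (edgeR) and 0.33 (DESeq2) in PM offspring, all called. The cause was not tested. At the study's DEG threshold limma called 0 of 9 genes in either cohort, against 6 and 7 (DESeq2 called 3 and 1), and without libraries under 10000000 reads 4 were called in PM offspring. Leaving out 1 library at a time gave 5 to 7 called genes in Sham and 6 to 8 in PM offspring. The shares of all genes called in these fits are not given here, nor is that without the shallow libraries. Stat4 lost its call in Sham for 3 of 12 libraries and Stat5a in PM for 5 of 11. Over all of these fits, called or not, Stat4 ranged from 0.59 to 0.96 in Sham and Stat5a from 0.34 to 0.49 in PM offspring. With array weights, which let limma count some libraries less, 4 members had an interaction term called: Jak1 (-0.93), Jak2 (-0.59), Stat3 (0.43) and Stat5b (-0.66), where Jak2 and Stat3 reversed. The share of all genes called with array weights is not given here. No other alternative called a member in the maternal comparisons or the interaction. In no comparison did every same-numbered pair of deviations correlate above 0.1. The range was -0.067 to 0.115 for OVA in Sham, -0.101 to 0.0625 for OVA in PM and -0.248 to 0.104 for PM against Sham. It was -0.311 to 0.617 for PM-OVA against Sham-OVA. Differently numbered pairs were not compared, so whether replicate numbers pair the samples was not settled. The numbers are those of the sample titles, which in the OVA groups differ in part from the library names. With a replicate block Stat4 was 0.67 (adjusted p = 0.0696) in Sham and 0.52 (adjusted p = 0.169) in PM, and Stat5a 0.38 (adjusted p = 0.211) in PM offspring. For Stat4, the least abundant gene, 1 read in the shallowest library was 0.311 RPM of its 3.73.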
